A study of Homo sapiens with 6 samples.

Results

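The enzymes that place methyl groups on histones and DNA, and those that take them off, were examined in HCC827 cells, an established lung adenocarcinoma cell line whose growth depends on a mutant EGFR. The cells received DMSO, the vehicle, or erlotinib, an inhibitor of the EGFR kinase, at 1 μM for 24 h, with 3 RNA-seq libraries per treatment, and no other line, agent or time was used here. The genes were taken by symbol alone: the KDM, KMT2, KMT5, SETD, SUV39H, EHMT, NSD, PRMT, TET and DNMT families, the Polycomb repressive complex 2 (PRC2) genes EZH1, EZH2, SUZ12 and EED, and DOT1L, UHRF1 and UHRF2. This gave 65 of the 28395 genes in the table. The DMSO libraries held 20858083, 24641819 and 21172884 reads on genes and the erlotinib libraries 21944007, 20760204 and 21678395. Values are read counts divided by 1 size factor per library, called the signal below, and the libraries are named DMSO1 to DMSO3 and Erlo4 to Erlo6 as in the table. The study's methods say in general that experiments were repeated independently, but no label ties these libraries to separate cultures, and the p-values measure the spread between these libraries, which may be technical. EGFR had the highest signal of the 6 genes used to check the label, the others being the epithelial EPCAM, KRT8, KRT18, KRT19 and CDH1. They summed to between 222228 and 237586 in DMSO and between 152092 and 159147 with erlotinib. Markers of fibroblasts, endothelium and blood cells, which a pure line should lack, summed to 2879, 2881 and 3275 in DMSO and to 3530, 3797 and 3712 with erlotinib over 12 genes, with CD68, a lysosomal protein, the most abundant by signal. None of the 12 was at 0 in all libraries and 4 were high enough to be tested, of which COL1A1 (log2 fold change 1.47), VWF (2.74) and CD68 (0.23) were higher with erlotinib and PECAM1 did not pass. The part of other cells in the results below was not tested.

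Histone methylation is read by position. Methyl groups on lysine 4, 36 and 79 of histone H3 (H3K4, H3K36, H3K79) mark transcribed genes, whereas those on H3K9 and H3K27 mark silent chromatin, and H4K20 methylation is tied to replication and chromosome compaction. SET domain enzymes write most lysine marks, the KDM proteins erase them, and the PRMTs methylate arginine on histones and on many other proteins. In DNA, DNMT3A and DNMT3B set new methyl groups on CpG, and DNMT1, brought to freshly replicated DNA by UHRF1, copies them onto the new strand. TET dioxygenases oxidise them. The copying enzymes are abundant in dividing cells, and some of the genes below are known targets of the E2F factors that drive S phase.

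Of the 65 genes, 60 reached a mean signal of 10 and were tested. By limma over all 14215 genes tested, with Benjamini-Hochberg adjustment and a threshold of 0.05, 25 were lower with erlotinib, 16 were higher and 19 passed in neither direction. Erlotinib changed much of the transcriptome, and the background is accordingly high: 35.4% of all tested genes were lower and 35.3% higher. At a size of at least 1 log2 unit, 7 enzymes were lower and 5 higher, against 10.8% and 17.0% of all tested genes. The libraries of the 2 treatments did not overlap for 45 of the 60 genes, a share near that of all genes (10462 of 14215). Their median log2 fold change was −0.09, against 0.02 over all genes. The split of 25 lower to 16 higher depends on the scaling. It was 20 to 24 when libraries were scaled to their total count, which moved the median of all genes to 0.19, and 37 to 14 after a correction for GC content and length, chosen after seeing the data, which moved it to −0.09. The background moved the same way, from 5031 lower and 5012 higher of 14215 genes. Total count scaling gave 3955 lower and 6156 higher. The correction gave 5902 lower of the 13890 genes it covers, and fewer higher than 5012. Counts under these settings below belong with these shifted backgrounds, not with 35.4% and 35.3%. Of the 41 genes called, 32 kept their call and direction under both settings and all other alternatives tried. In bulk RNA, fewer cells holding a transcript and less of it per cell cannot be told apart.

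**Figure D1:**
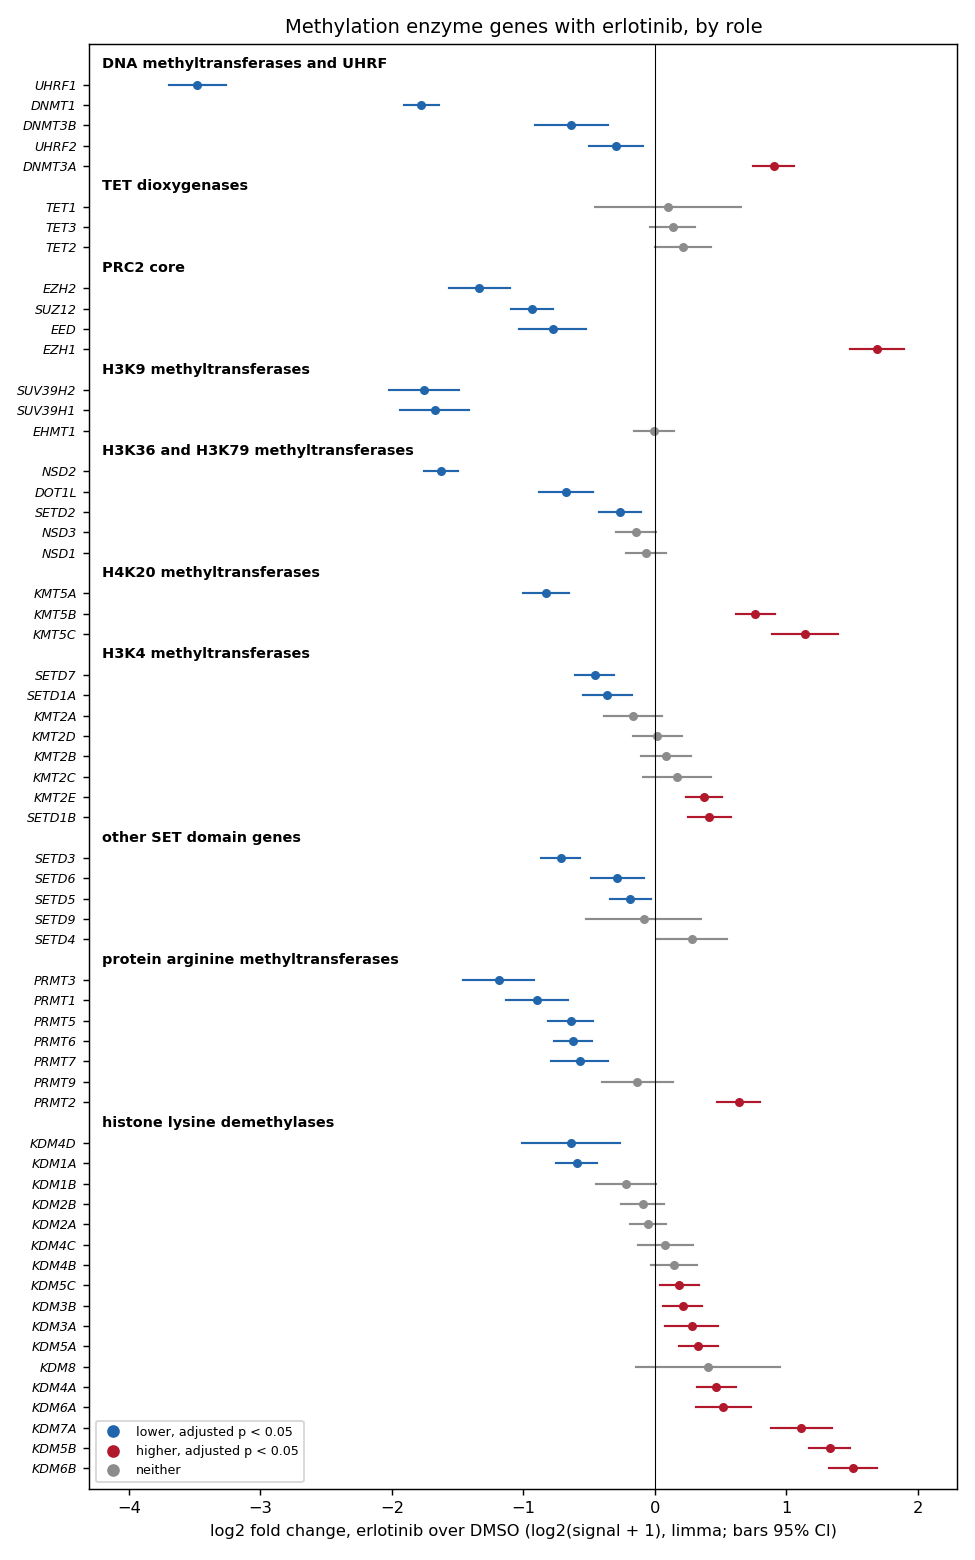
Log2 fold change (erlotinib over DMSO, log2 of signal + 1) with its 95% confidence interval for each of the 60 tested genes, grouped by role and coloured by call. UHRF1 lies farthest to the left at −3.48 and EZH1 farthest to the right at 1.69, and genes near 0 can change side when the libraries are scaled to the total count or corrected for GC content and length.

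**Figure D2:**
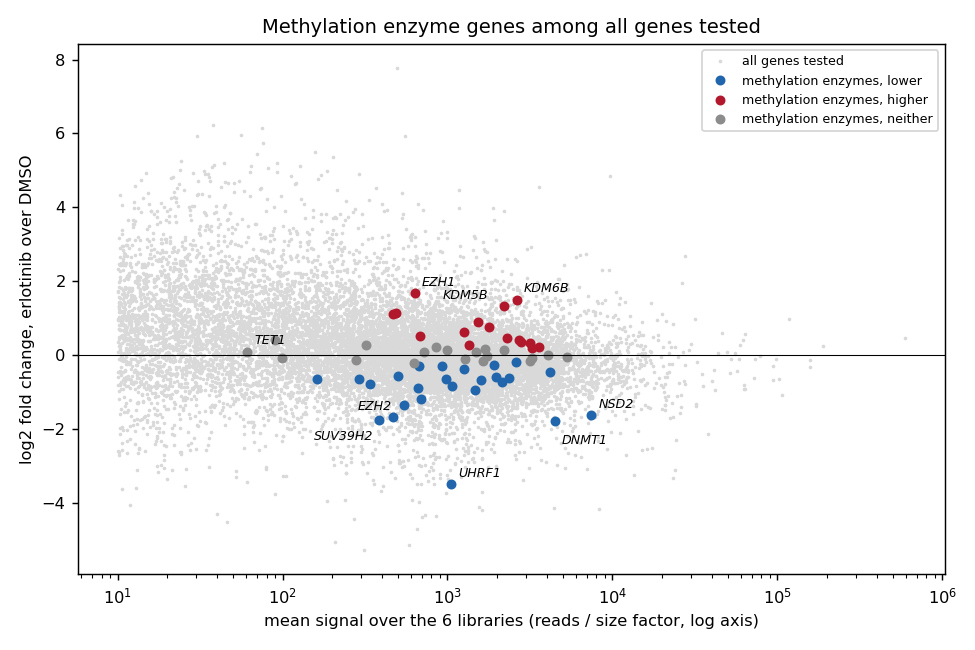
Mean signal over the 6 libraries (log axis) against log2 fold change for all 14215 tested genes, in grey, with the methylation enzymes in colour by call. The enzymes lie inside the cloud of all genes. UHRF1 is lowest at −3.48, where 30 genes fell more, and DNMT1 at −1.78 has 493 below it.

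UHRF1 and DNMT1, the pair that carries DNA methylation through replication, fell, while DNMT3A, which sets new methylation, rose. UHRF1, a reader of hemimethylated DNA and a ubiquitin ligase, had a signal of 1837, 1960.5 and 1954 in the DMSO libraries and 157, 166 and 191 in the erlotinib libraries. The groups were far apart, with an 11.2-fold difference of the means (log2 fold change −3.48, SE 0.103, adjusted p = 9.7e-17), and only 30 of all tested genes fell more. DNMT1, the maintenance methyltransferase, had 6799.6, 7000.4 and 6971 in the DMSO libraries and 2026, 2024 and 2007 in the erlotinib libraries. It fell by 1.78 log2 units (SE 0.0633, adjusted p = 1.4e-15) without overlap. DNMT3A gave 1063, 1049 and 1097 in the DMSO libraries and 2082, 2022 and 1900.2 in the erlotinib libraries, and all 3 erlotinib libraries stood above all 3 DMSO libraries (log2 fold change 0.90, SE 0.0761, adjusted p = 1.2e-09). DNMT3B, the other de novo enzyme, went the other way, from 353 ± 39.4 to 226 ± 17.1 (SD, n = 3), a log2 fold change of −0.64 (adjusted p = 0.00024). UHRF2, the paralogue of UHRF1, had 676, 804 and 759 in the DMSO libraries and 594, 641 and 583 in the erlotinib libraries. Its libraries did not overlap either, but the difference was small (log2 fold change −0.30, SE 0.0982, adjusted p = 0.011) and did not pass with total count scaling (−0.12, adjusted p = 0.3). So 4 of the 5 tested genes of the group fell and 1 rose, against 35.4% lower and 35.3% higher of all tested genes. With total count scaling 3 fell. After the GC and length correction DNMT3A rose less (0.57). DNMT3L, a catalytically inactive cofactor known from germ cells, had at most 2 reads in a library and was not tested.

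Per kilobase of the GENCODE canonical transcript, which allows levels to be set against each other, DNMT1 was the most abundant of this group in DMSO with a signal of 1313 ± 20.6 (SD, n = 3). UHRF1 followed at 492 ± 17.9, then UHRF2 at 209 ± 18.2, DNMT3A at 114 ± 2.61 and DNMT3B at 81.4 ± 9.09. With erlotinib DNMT1 was still first at 383 ± 1.98, DNMT3A came next at 212 ± 9.82 and UHRF2 after it at 169 ± 8.50. DNMT3B at 52.2 ± 3.95 and UHRF1 at 44.0 ± 4.51 came last, and their ranges of 1 SD overlapped. UHRF1 had moved from next to the top to the bottom of the 5. On the signal scale the log2 ratio of DNMT1 to DNMT3A was 2.68, 2.74 and 2.67 in DMSO and −0.04, 0.00 and 0.08 with erlotinib, a difference of −2.68. These are ratios of signals, not of levels per length. The ratio of UHRF1 to UHRF2 went from a mean of 1.36 ± 0.0780 to −1.82 ± 0.186 (SD, n = 3), which turned its sign. Such ratios within a library do not depend on 1 scaling factor per library, but the GC and length correction, which acts gene by gene, can move them. In all 4 ratios compared, counting those of EZH2 and KDM6B below, the libraries separated by treatment completely. Each had an exact two-sided permutation p of 0.1, the smallest that 3 against 3 libraries allow, and 0.1 after adjustment over the 4.

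**Figure D3:**
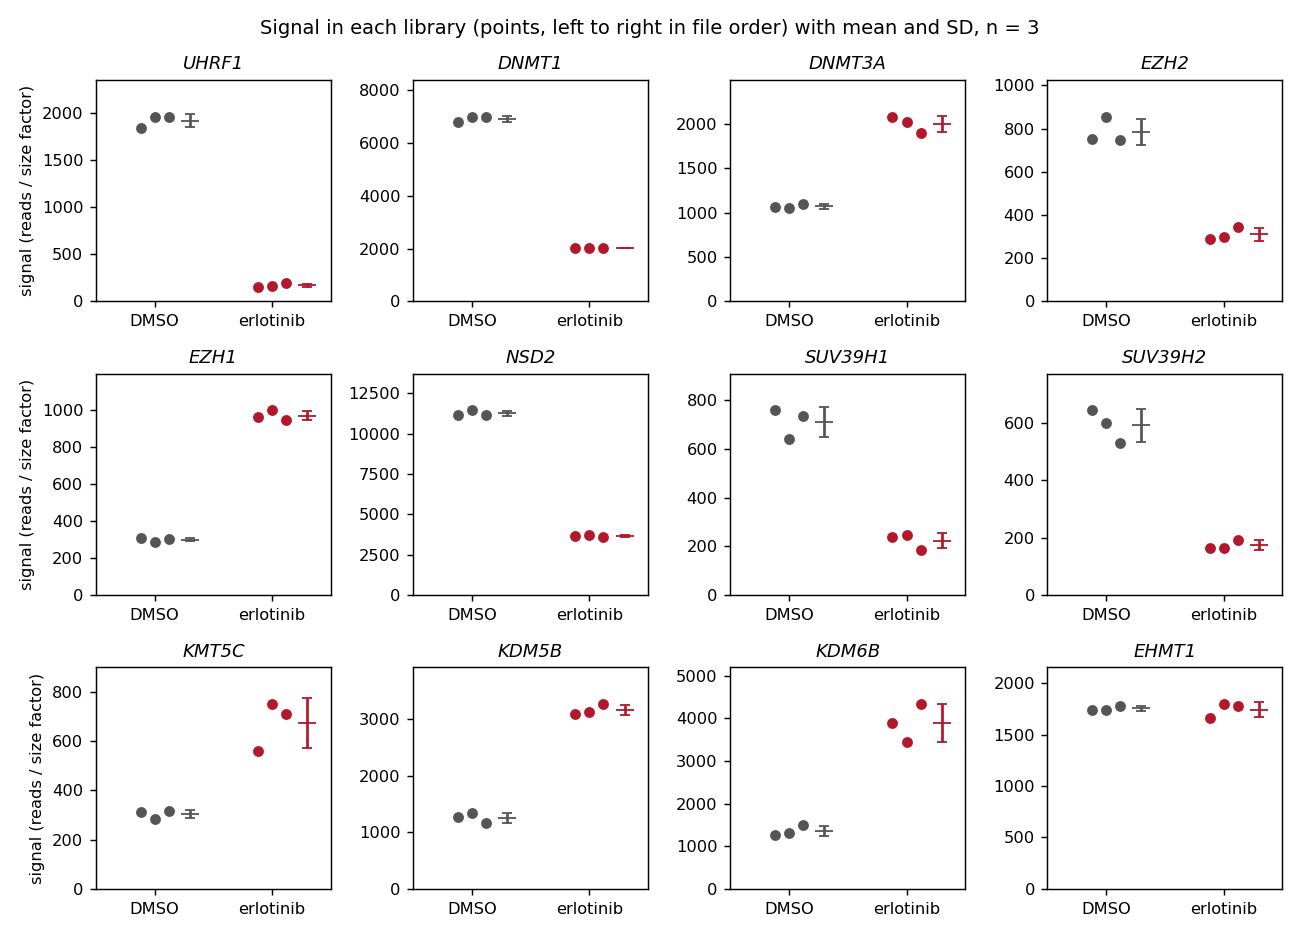
Signal (reads divided by the size factor, linear axes from 0) of 12 enzyme genes, 1 point per library, DMSO1 to DMSO3 in grey and Erlo4 to Erlo6 in red, with the mean and SD beside them. The treatments are apart in 11 of the 12 panels and overlap for EHMT1. The genes were picked by their values, most for a large change without overlap, so this count follows from the choice. Over all tested genes the treatments did not overlap for 10462 of 14215.

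The promoters of UHRF1 and DNMT1 are shown because both carry a word that matches the binding site of E2F factors, TTTCGCGC. The words searched, on both strands, were TTTCGCGC and TTTGGCGC for E2F, CCAAT for the CCAAT box and GTAAACA for forkhead factors, and none contains another. The windows, from 250 bases before to 50 after a start, are RefSeq sequences of GRCh38.p14, and 60 of the 65 genes had at least 1. The UHRF1 window is chr19:4909894-4910193 on the plus strand and that of DNMT1 is chr19:10194904-10195203 on the minus strand. Both are written along the gene, with the E2F word in capitals, which in DNMT1 is the reverse complement.
UHRF1: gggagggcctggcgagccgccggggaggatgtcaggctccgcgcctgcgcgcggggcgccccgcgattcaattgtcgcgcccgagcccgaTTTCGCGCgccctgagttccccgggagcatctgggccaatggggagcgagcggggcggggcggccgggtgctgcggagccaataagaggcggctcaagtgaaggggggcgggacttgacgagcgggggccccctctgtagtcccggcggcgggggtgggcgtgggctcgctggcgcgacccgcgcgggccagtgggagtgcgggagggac
DNMT1: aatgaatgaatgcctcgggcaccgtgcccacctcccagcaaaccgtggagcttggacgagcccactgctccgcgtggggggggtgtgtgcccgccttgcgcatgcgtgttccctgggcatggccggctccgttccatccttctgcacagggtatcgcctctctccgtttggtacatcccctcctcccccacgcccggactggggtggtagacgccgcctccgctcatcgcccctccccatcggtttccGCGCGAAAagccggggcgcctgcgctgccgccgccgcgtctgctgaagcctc
The TTTCGCGC word starts 160 bases before the start of this UHRF1 window's transcript, and in DNMT1 the word overlaps the start itself.

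TET1, TET2 and TET3, which oxidise 5-methylcytosine, did not pass the test. Their log2 fold changes were 0.10, 0.21 and 0.14, with 95% confidence intervals of −0.46 to 0.65, 0.00 to 0.42 and −0.04 to 0.31. Per kilobase of transcript their signals in DMSO were 6.08 ± 1.04 for TET1, 81.9 ± 9.11 for TET2 and 174 ± 6.24 for TET3 (SD, n = 3), in this order also with erlotinib, where TET3 had 192 ± 23.7. With total count scaling 2 of the 3 passed as higher, and with the GC and length correction 1 passed in each direction. Without DMSO2, TET2 passed as higher (0.29, adjusted p = 0.0087).

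In PRC2, which methylates H3K27, the 2 alternative catalytic subunits moved in opposite directions. EZH2, the subunit of dividing cells, had a signal of 752, 855 and 747 in the DMSO libraries and 291, 296 and 346 in the erlotinib libraries. EZH1, its paralogue, which is known from resting cells and is the weaker methyltransferase, had 307, 288 and 304 in the DMSO libraries and 961, 996 and 946 in the erlotinib libraries. Neither gene's groups overlapped. EZH2 fell (log2 fold change −1.33, SE 0.110, adjusted p = 8.7e-10) and EZH1 rose (log2 fold change 1.69, SE 0.0989, adjusted p = 3.5e-12), the latter being the largest rise of all 60 genes. The log2 ratio of EZH2 to EZH1 was 1.29, 1.57 and 1.29 in DMSO and −1.72, −1.75 and −1.45 with erlotinib, a difference of −3.02. Per kilobase of transcript, the signal of EZH2 went from 296 ± 23.0 to 117 ± 11.6 and that of EZH1 from 64.7 ± 2.25 to 209 ± 5.50 (SD, n = 3), so the order of their levels turned. The shared subunits SUZ12 and EED, which hold the complex together, fell from 1929 ± 77.2 to 1009.9 ± 29.9 (SD, n = 3) and from 432 ± 35.5 to 251 ± 7.44 (SD, n = 3), with log2 fold changes of −0.93 and −0.78 (adjusted p = 7.9e-10 and 8.1e-06). The count of 3 lower and 1 higher of 4, against 35.4% lower and 35.3% higher of all tested genes, was the same with total count scaling and with the GC and length correction. Among 8 tested partners of PRC2, 4 were lower and 1 higher, against 35.4% lower and 35.3% higher of all tested genes, with a median of −0.26. Total count scaling gave 4 and 2, and the correction 4 and 0. PHF19, a Polycomb-like protein that brings PRC2 to chromatin, fell most (−1.49), followed by the histone-binding RBBP7 (−0.69), and JARID2 was the one that rose (0.31).

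**Figure D4:**
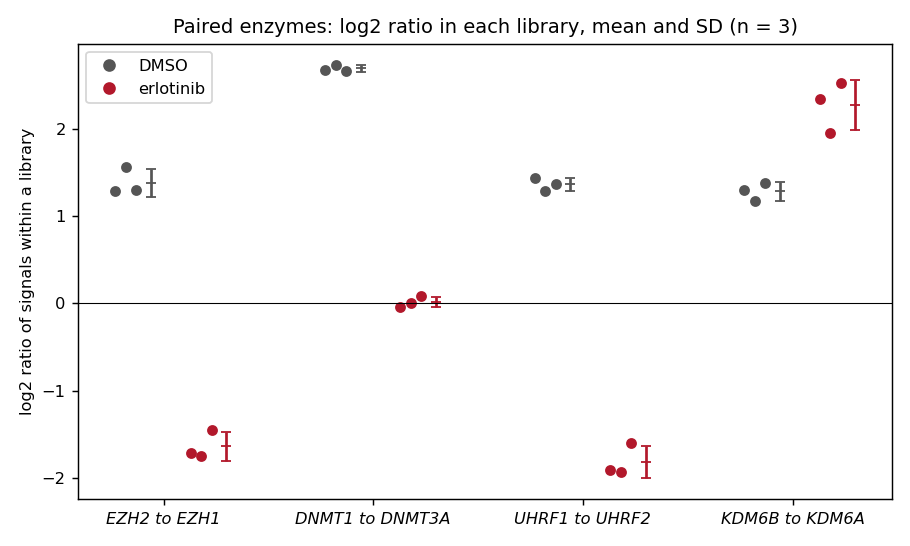
Log2 ratio of the signals of 4 pairs of enzymes, 1 point per library, DMSO in grey and erlotinib in red, with the mean and SD beside them (n = 3). The ratio of EZH2 to EZH1 goes from a mean of 1.38 to −1.64 and that of UHRF1 to UHRF2 from 1.36 to −1.82, both through 0, that of DNMT1 to DNMT3A drops from 2.69 to 0.01, and that of KDM6B to KDM6A climbs from 1.28 to 2.27, a difference that shrinks to 0.46 after the GC and length correction.

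The promoters of EZH2 and EZH1 are printed together. The EZH2 window, chr7:148884242-148884541 on the minus strand, has the E2F word TTTGGCGC at the start of transcription. The EZH1 window, chr17:42744991-42745290 on the minus strand, has neither of the exact E2F words searched. It does hold tttggcgg, which differs from TTTGGCGC only in the last letter, and near matches were not searched for. It has the forkhead word GTAAACA 38 bases after its own start. Capitals mark the exact E2F and forkhead words.
EZH2: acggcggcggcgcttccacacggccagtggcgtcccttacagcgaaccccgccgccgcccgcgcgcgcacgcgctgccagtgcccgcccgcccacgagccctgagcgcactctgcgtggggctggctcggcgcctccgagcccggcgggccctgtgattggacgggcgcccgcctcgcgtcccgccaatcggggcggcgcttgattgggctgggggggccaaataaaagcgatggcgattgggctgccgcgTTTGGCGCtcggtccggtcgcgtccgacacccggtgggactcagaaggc
EZH1: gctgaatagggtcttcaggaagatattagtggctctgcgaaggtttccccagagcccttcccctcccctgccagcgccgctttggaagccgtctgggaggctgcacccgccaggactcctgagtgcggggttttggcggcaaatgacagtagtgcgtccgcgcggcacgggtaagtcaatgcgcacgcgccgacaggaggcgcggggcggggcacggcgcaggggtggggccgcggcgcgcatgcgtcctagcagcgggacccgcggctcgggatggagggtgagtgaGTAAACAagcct
An E2F word was in the windows of 3 of the 24 lower genes that had a window (12.5%), which were UHRF1, DNMT1 and EZH2, and in those of 0 of 15 higher genes and 0 of 18 that passed in neither direction. Of all tested genes with a window 2.45% had one, and of all 35116 windows 1.15%. UHRF1 had 3 windows and EZH2 had 2, with the word in 1 of each. The forkhead word was in EZH1 among the higher genes, in UHRF2 among the lower, and in TET2, NSD1 and KDM2B among those that passed in neither direction. These are 1 of 15, 1 of 24 and 3 of 18 genes with a window (6.67%, 4.17% and 16.7%), against 3.50% of all tested genes with a window. CCAAT was in 14 of the 24 lower genes (58.3%), 5 of the 15 higher (33.3%) and 6 of the other 18 (33.3%), against 42.8% of all tested genes with a window. A match describes these letters and is not a binding site shown in these cells.

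Genes of DNA replication and of proliferation in general fell in the same libraries. All 19 genes of a list were lower, against 35.4% lower and 35.3% higher of all tested genes, by a median of −2.76. It holds 15 genes of replication and the entry into S phase, and MKI67, TOP2A, CCNB1 and CDK1, which mark cycling cells or the phases that follow. Those that fell most were the replication licensing factor CDC6 (−4.19) and the ribonucleotide reductase subunit RRM2 (−4.14). UHRF1 lies beyond this median, and DNMT1, EZH2, SUV39H1, SUV39H2 and NSD2, at −1.33 to −1.78, lie short of it. The part of the cell cycle in the fall of the enzymes was not tested.

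The H3K9 writers tested among the 65 genes were SUV39H1, SUV39H2 and EHMT1. SETDB1, an H3K9 methyltransferase outside the families examined, rose (0.82) and is not counted here. The SUV39H enzymes, which trimethylate H3K9 in pericentric heterochromatin, both fell. So 2 of the 3 tested genes of this group were lower and none higher, against 35.4% lower and 35.3% higher of all tested genes. SUV39H2 had a signal of 643, 601 and 529 in the DMSO libraries and 164, 165 and 193 in the erlotinib libraries, a clean separation (log2 fold change −1.76, SE 0.128, adjusted p = 1.2e-10). SUV39H1, its X-linked paralogue, fell from 713 ± 61.9 to 224 ± 32.1 (SD, n = 3; log2 fold change −1.67, SE 0.126, adjusted p = 2.0e-10). EHMT1 (GLP), which with EHMT2 (G9a) mono- and dimethylates H3K9 in euchromatin, had 1740.2, 1741 and 1778 in the DMSO libraries and 1658, 1794 and 1773 in the erlotinib libraries. Its groups overlapped and it was the enzyme closest to no change, with a log2 fold change of −0.01 (95% confidence interval −0.16 to 0.14). With total count scaling it stood at 0.17 and passed as higher, and after the GC and length correction it passed as lower. EHMT2 was listed at 0 in all libraries, and gave no value. It was the one gene of the 65 whose transcript aligned to alternate contigs of the genome (at least 90% of its length at 97% identity or more), and whether reads that fit several places account for the 0 was not tested. SUV39H2 overlaps DCLRE1C, with a mean signal of 222, and counts of such genes are uncertain where the strand of the reads was not used. Of 12 readers of H3K9 and DNA methylation, 7 were lower and 1 higher, against 35.4% lower and 35.3% higher of all tested genes, with a median of −0.47. Total count scaling gave 7 and 1 as well, and the GC and length correction 9 and 1. The heterochromatin proteins CBX5 (HP1α) and CBX3 (HP1γ) fell most (−1.30 and −0.84), and ZBTB33 (Kaiso), which binds methylated CpG, rose (0.35).

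For H3K36 and H3K79, 3 of 5 genes fell and none rose, against 35.4% lower and 35.3% higher of all tested genes. With total count scaling 2 fell, and with the GC and length correction all 5 did. NSD2, which dimethylates H3K36 and is also known as MMSET, had a signal of 11167, 11433 and 11152 in the DMSO libraries and 3659.9, 3705 and 3568 in the erlotinib libraries. Its groups lay far apart, and it fell by 1.63 log2 units (SE 0.0608, adjusted p = 2.9e-15). Its paralogues NSD1 and NSD3 had log2 fold changes of −0.07 and −0.14 and did not pass. DOT1L, the H3K79 methyltransferase, fell (−0.68, adjusted p = 3.4e-06), by more after the correction (−1.28), and overlaps AP3D1 and PLEKHJ1, and SETD2, which trimethylates H3K36 behind the polymerase, fell slightly (−0.27, adjusted p = 0.0046) but not with total count scaling (−0.09, adjusted p = 0.32).

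Of the 3 H4K20 enzymes 1 fell and 2 rose, against 35.4% lower and 35.3% higher of all tested genes, a count that was the same under either scaling and after the correction. KMT5A (SET8), the monomethyltransferase of dividing cells, had 1382, 1369.8 and 1319.7 in the DMSO libraries and 749, 814 and 727 in the erlotinib libraries and fell without overlap (log2 fold change −0.83, SE 0.0837, adjusted p = 1.9e-08). KMT5C (SUV420H2), which adds further methyl groups, had 312, 284 and 315 in the DMSO libraries and 560.1, 750.4 and 712 in the erlotinib libraries. The erlotinib libraries all stood above the DMSO libraries (log2 fold change 1.14, SE 0.121, adjusted p = 3.9e-08), and the rise was smaller after the GC and length correction (0.58). KMT5B (SUV420H1), with the same task, rose from 1326 ± 14.6 to 2251 ± 50.3 (SD, n = 3; log2 fold change 0.76, SE 0.0717, adjusted p = 6.5e-09).

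Changes of the genes grouped as H3K4 writers were small and mixed in direction. Of 8 genes 2 were lower and 2 higher (25% each way, below the 35.4% and 35.3% of all tested genes), all by less than 0.5 log2 units. This count was 1 lower to 4 higher with total count scaling and 5 to 1 after the correction. SETD7, a monomethyltransferase with many non-histone substrates, fell from 4765, 5277 and 4475 in DMSO to 3496, 3469 and 3571 with erlotinib (log2 fold change −0.46, SE 0.0698, adjusted p = 6.2e-06), or by less with total count scaling (−0.28). SETD1B, a catalytic subunit of a COMPASS complex, had 2238, 2200.1 and 2531 in the DMSO libraries and 3034, 2878 and 3379 in the erlotinib libraries and rose (log2 fold change 0.41, SE 0.0779, adjusted p = 7.8e-05), but its value turned to −0.14 after the GC and length correction. SETD1A, its paralogue, fell (−0.36), but did not pass with total count scaling (−0.18, adjusted p = 0.073) and stood at −0.92 after the correction. KMT2E rose (0.37). The large MLL genes KMT2A, KMT2B, KMT2C and KMT2D had log2 fold changes of −0.17, 0.08, 0.17 and 0.02 and did not pass. DMSO2 and Erlo6 were the highest of their groups for KMT2A, KMT2C and KMT2D, and calls of KMT2A and KMT2C turned on single libraries. Without DMSO2 KMT2C passed as higher (0.35, adjusted p = 0.0012), and KMT2A passed as lower without Erlo6 (−0.29, adjusted p = 0.019) and without DMSO1 (−0.25, adjusted p = 0.041). KMT2D did not pass whichever library was left out. After the GC and length correction, however, KMT2A (−0.35), KMT2B (−0.54) and KMT2D (−0.51) passed as lower. Total count scaling instead made KMT2B (0.26) and KMT2C (0.35) pass as higher. Of 16 partners of one or more COMPASS and MLL complexes, 9 were lower and 2 higher, against 35.4% lower and 35.3% higher of all tested genes, with a median of −0.25. Total count scaling gave 7 and 3, and the correction 12 and 1. PAGR1 (−1.08) and the core subunit WDR5 (−0.86) fell most, and HCFC2 (0.41) and the CpG-binding CXXC1 (0.29) were those that rose.

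Of the remaining 5 SET domain genes 3 were lower and 0 higher, against 35.4% lower and 35.3% higher of all tested genes. SETD3, the actin histidine methyltransferase, had 2689.7, 2760.1 and 2578 in the DMSO libraries and 1601, 1669 and 1613 in the erlotinib libraries and fell without overlap (log2 fold change −0.72, SE 0.0703, adjusted p = 1.2e-08). It overlaps CCNK, whose mean signal was 1970.1. SETD6 and SETD5 were slightly lower (−0.29 and −0.19) and lost their call with total count scaling (−0.11 and −0.01), which left 1 gene of the group lower and 1 higher. Leaving out a library also cost SETD6 its call (without DMSO3 or Erlo6) and SETD5 (without DMSO1, Erlo4 or Erlo5). SETD6 overlaps CNOT1, which had 5568 against 927 for SETD6. After the GC and length correction the count of the group was again 3 lower and 0 higher. SETD4 and SETD9 had 0.28 and −0.09 and did not pass. SETD9, with a mean signal of 99.7, overlaps MIER3, which had 897. SETD4 passed as higher without DMSO2 (0.36, adjusted p = 0.015).

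Most arginine methyltransferases with a PRMT symbol fell: 5 of 7 tested genes were lower (71.4%, against 35.4% of all tested genes) and 1 was higher, with a median of −0.62. The count was the same with total count scaling and after the correction. PRMT3, the ribosomal enzyme that methylates RPS2, had 813, 1235 and 833 in the DMSO libraries and 419, 387 and 433 in the erlotinib libraries. DMSO2 stood high in its group, and the groups did not overlap (log2 fold change −1.19, SE 0.129, adjusted p = 5.7e-08). PRMT1, which makes most asymmetric dimethylarginine, fell from 858 ± 123 to 459 ± 49.3 (SD, n = 3; log2 fold change −0.90, SE 0.115, adjusted p = 6.0e-07), and PRMT5, which makes most of the symmetric form, from 1203 ± 60.0 to 769.9 ± 8.90 (SD, n = 3; log2 fold change −0.64, SE 0.0838, adjusted p = 7.9e-07). PRMT6 and PRMT7 fell too (−0.62 and −0.57), PRMT7 to −0.90 after the correction. PRMT2 had 1021, 1007 and 946 in the DMSO libraries and 1524, 1505 and 1594 in the erlotinib libraries and was the one that rose (log2 fold change 0.64, SE 0.0788, adjusted p = 3.8e-07). PRMT9 had −0.13 and did not pass, and PRMT8, a brain enzyme, was listed at 0. CARM1, an arginine methyltransferase without a PRMT symbol and so not counted here, had −0.06 and did not pass.

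The histone demethylases leaned the other way. Of 17 tested KDM genes 9 were higher (52.9%, against 35.3% of all tested genes), 2 were lower and 6 passed in neither direction, with a median of 0.21. The count was 11 higher to 2 lower with total count scaling and 7 to 7 after the GC and length correction. Over all genes the same scaling raised the higher calls from 5012 to 6156. The correction raised the lower calls from 5031 to 5902. KDM6B (JMJD3), which removes H3K27 methylation, had a signal of 1269, 1322 and 1503 in the DMSO libraries and 3889.7, 3438 and 4331 in the erlotinib libraries. It rose without overlap (log2 fold change 1.51, SE 0.0864, adjusted p = 2.5e-12). KDM6A (UTX), the X-linked enzyme with the same target, had 515, 586 and 576 in the DMSO libraries and 768, 886 and 752 in the erlotinib libraries and rose less (log2 fold change 0.52, SE 0.10, adjusted p = 0.00011). The log2 ratio of KDM6B to KDM6A was 1.30, 1.17 and 1.38 in DMSO and 2.34, 1.96 and 2.53 with erlotinib, a difference of 0.99, which was 0.46 after the GC and length correction. KDM5B, an H3K4 demethylase, rose from 1256 ± 87.8 to 3156 ± 90.9 (SD, n = 3; log2 fold change 1.33, SE 0.0747, adjusted p = 1.8e-12), whereas its paralogues KDM5A and KDM5C had 0.33 and 0.19, both past the threshold. KDM5C turned to −0.22 after the correction and lost its call without DMSO2, Erlo4 or Erlo5. With total count scaling KDM5A was at 0.51 and KDM5C at 0.37. KDM7A, which acts on H3K9 and H3K27, rose from 293 ± 21.1 to 635 ± 29.2 (SD, n = 3; log2 fold change 1.11, SE 0.110, adjusted p = 1.4e-08). KDM4A, an H3K9 and H3K36 demethylase, rose by 0.47, and KDM3A and KDM3B, which act on H3K9, by 0.28 and 0.21, of which KDM3B was at −0.0095 after the correction. The groups of KDM3A overlapped, and its call was lost without DMSO1 (adjusted p = 0.08), without DMSO3 (0.092) and without Erlo6 (0.058). KDM3B lost its call without DMSO1 (0.058) and without Erlo6 (0.093). With total count scaling KDM3A was at 0.46 and KDM3B at 0.39. With the correction KDM6B rose by 0.95 and KDM4A by 0.29. The 2 that fell were KDM4D and KDM1A. KDM4D, a short KDM4 form, had 204, 184 and 199 in the DMSO libraries and 161, 111 and 109.5 in the erlotinib libraries, low but separated (log2 fold change −0.64, SE 0.178, adjusted p = 0.0032). KDM1A (LSD1), the flavin-dependent H3K4 demethylase, fell from 2381 ± 166 to 1576 ± 32.2 (SD, n = 3; log2 fold change −0.59, SE 0.0747, adjusted p = 4.8e-07). KDM2A, KDM2B, KDM1B, KDM4B, KDM4C and KDM8 lay between −0.22 and 0.40 and did not pass. Without DMSO3, however, KDM8 passed as higher (0.74, adjusted p = 0.013), and without Erlo5 KDM1B passed as lower (−0.30, adjusted p = 0.04). After the GC and length correction KDM2A (−0.35), KDM2B (−0.40), KDM1B (−0.21) and KDM4B (−0.37) passed as lower. Total count scaling instead made KDM4B (0.32) and KDM4C (0.26) pass as higher. KDM2B overlaps RNF34. KDM4E was listed at 0, and KDM5D was below the filter.

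**Figure D5:**
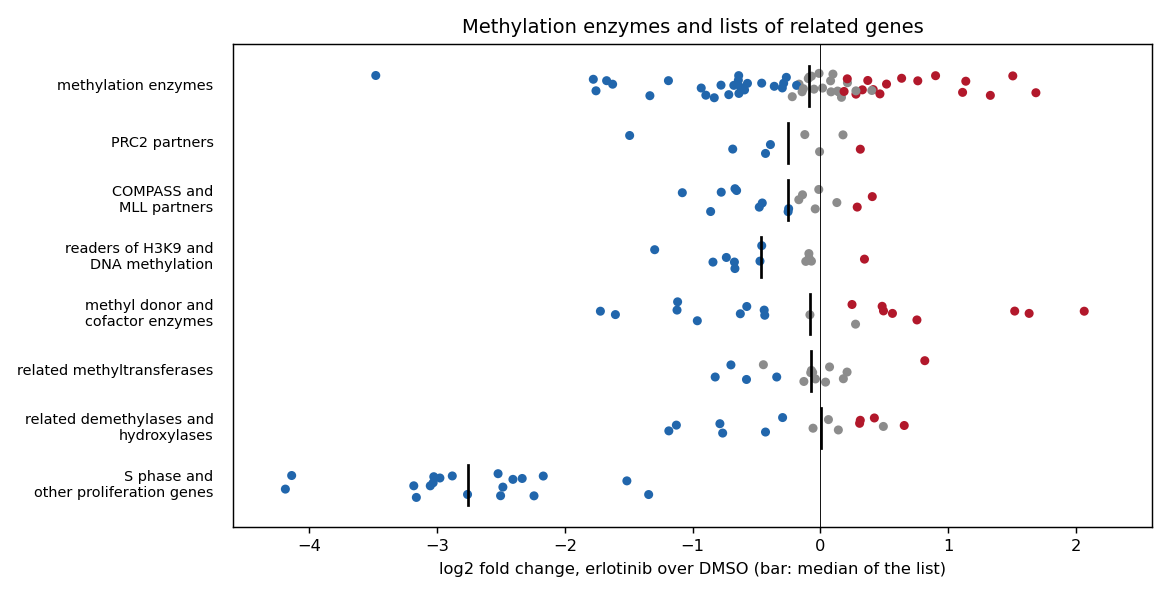
Log2 fold change (erlotinib over DMSO) of each tested gene in the methylation enzymes and in 7 lists of related genes, lower genes in blue, higher in red and the rest in grey, with a black bar at the median. The S phase and other proliferation genes lie between −4.19 and −1.34, with a median of −2.76, whereas the median of the enzymes is −0.09.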

How the data were processed

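HCC827 cells treated with DMSO or erlotinib (3 libraries each) were profiled by RNA-seq. Read pairs were aligned by the authors to GRCh38 using Bowtie2 2.3.4, which does not splice, and unique alignments were summed over genes using featureCounts 1.6.3 (strand not given in the sources used here). The signal deposited by the authors is reads divided by 1 size factor per library: 100% of values were whole reads within 0.01. In every library more genes had 2 reads (736 to 831) than 1 read (413 to 487). The erlotinib columns, numbered 4 to 6, were assigned to their group only, and 475 genes had no symbol.

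The 14215 of 28395 genes whose mean signal reached 10 were tested two-sided with limma 3.58.1 (R 4.3.3) with a variance trend on log2(signal + 1), so fold changes of low genes are understated, and Benjamini-Hochberg adjustment over all of them. Copies were searched for with minimap2 on 261 alternate contigs. Genes with values in every library were those with the largest rise and fall in each role group among genes past the threshold without overlap, the genes of the 4 ratios and the gene closest to no change. SUV39H1, SUZ12, EED, KMT5B, KDM5B, KDM7A, KDM1A, DNMT3B, PRMT1 and PRMT5 were added after their values were seen. The genes and lists were chosen with earlier results of these data known. A gene picked by the rule for related lists is not reported here. Alternatives were edgeR 4.0.16, DESeq2 1.42.0 and voom on recovered reads, total count scaling, other filters, pseudocounts of 0.1 and 10, a threshold of 0.01, each library left out and, added after seeing the data, a GC and length correction. On simulated data limma called 182 of 197 changed genes, with 6.19% of its 194 calls false. There only these 197 of 14191 tested genes were changed, each by at least 1 log2 unit. Far more genes were called in the real data, many with smaller changes, so these shares do not measure the calls above.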

Additional observations from a re-analysis of the deposited data

How the results depend on the processing

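The counts over all genes and over the enzymes stayed within 1.5 times their values under all 16 alternatives. Over all genes, 3955 to 5902 were lower and 4323 to 6156 higher, and 4702 to 5096 and 4585 to 5094 with a library left out. Of the 41 enzymes called, 32 kept call and direction under every alternative. The other 9 were KDM3A, KDM3B, KDM5C, SETD1A, SETD1B, SETD2, SETD5, SETD6 and UHRF2. Total count scaling turned EHMT1 (0.17), KDM2A (0.13), KDM2B (0.085), KMT2A (0.013), NSD1 (0.11), NSD3 (0.037), PRMT9 (0.046) and SETD9 (0.091). The GC and length correction, known for 97.7% of tested genes, turned KDM3B (−0.0095), KDM4B (−0.37), KDM5C (−0.22), KMT2B (−0.54), KMT2D (−0.51), SETD1B (−0.14), SETD9 (0.12) and TET3 (−0.20). EHMT1 was 0.0063 with edgeR and 0.0056 with voom. With libraries left out, values that turned ranged over −0.10 to 0.10 for KMT2D, −0.19 to 0.093 for SETD9, −0.043 to 0.30 for TET1 and −0.032 to 0.025 for EHMT1. The causes were not tested. The difference in the ratio of KDM6B to KDM6A lay between 0.86 and 1.15 with a library left out and was 0.46 after the GC and length correction. The correction gave −2.81 for EZH2 to EZH1, −2.66 for DNMT1 to DNMT3A and −3.50 for UHRF1 to UHRF2. No paired analysis was possible because the table's columns share no replicate numbers between treatments. Single libraries were not tested for standing apart, since groups of 3 are too small. Depth limits TET1, KDM8 and SETD9 most, whose mean signals were the lowest of the 60, from 60.8 to 99.7.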

Other observations

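The enzymes that supply and clear the methyl donor, S-adenosylmethionine, and the cofactors of the demethylases moved in both directions. Of 19 tested genes of this list 9 were lower and 8 higher, against 35.4% lower and 35.3% higher of all tested genes. Total count scaling gave 9 and 9, and the GC and length correction 10 and 6. AHCYL2, related to the hydrolase of S-adenosylhomocysteine, rose from 570.2 to 1772 in mean signal (log2 fold change 1.63, limma adjusted p = 3.6e-13). IDH3A (−1.72), a subunit of the mitochondrial enzyme that makes 2-oxoglutarate, and SHMT1 (−1.60), which passes a carbon from serine to folate, fell most.

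Of the related enzymes outside the families above, 15 methyltransferases were tested and 4 were lower and 1 higher. Of all tested genes 35.4% were lower and 35.3% higher, a larger share each way. The counts of methyltransferases were 3 and 3 with total count scaling and 7 and 1 after the GC and length correction. SETDB1, an H3K9 methyltransferase, rose (0.82) where SUV39H1 and SUV39H2 fell, and SMYD2 (−0.82) and CAMKMT (−0.70) fell most. Of 14 tested demethylases and hydroxylases 6 were lower and 4 higher (42.9% and 28.6%, near the background), which became 4 and 6 with total count scaling and 8 and 2 after the correction. JMJD6 (−1.19) and RIOX1 (−1.13) fell most, and JMJD7 (0.66) and PHF2 (0.42), a relative of KDM7A, rose most.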
